A study of Ramazzottius varieornatus with 48 samples.

Results

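Whole Ramazzottius varieornatus, strain YOKOZUNA-1, were compared at 12 h after exposure to 2.5 kJ/m2 of UVC with animals that were not exposed. Both groups belong to the Short time course of the study, in which polyadenylated RNA was sequenced from animals sampled up to 12 h after exposure. The comparison was chosen as the 3 libraries at 12 h against the 3 non-exposed libraries, 6 of the 48 libraries of the study, and the 12088 transcripts with a mean of at least 1 TPM (transcript abundance, a level corrected for transcript length and relative to the total of its library) over the 48 libraries. Each library was made from 30 whole animals, and the 3 libraries of a group are biological replicates chosen by RNA integrity. Exposed animals had their excess water removed, were irradiated, received water again and were kept in a dark chamber at 22 °C until they were frozen. Non-exposed animals came from the same culture and were frozen at 0 h, so exposure, handling and 12 h in the chamber cannot be told apart. The study describes no feeding of the Short animals after exposure, so time without food cannot be told apart from these either. The separate Long time course has its own libraries at 12 h and its own non-exposed group, which were used below as a second measurement, and its animals were given Chlorella at the 12 h time point.

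R. varieornatus is a tardigrade, a microscopic animal that survives drying and high doses of radiation. UVC is absorbed by DNA, where it joins neighbouring pyrimidines into dimers that block polymerases, and reactive oxygen species formed after irradiation add breaks and oxidised bases. Cells answer such damage by reversing or excising the lesions, by holding and rejoining broken ends, and by clearing damaged proteins and mitochondria through the proteasome and autophagy. Protein names are Swiss-Prot matches to proteins of other species, and the role given for each is the one known for those proteins. Transcripts are written with the gene number of the deposited table.

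Depth cannot be read from TPM, since every library has the same sum. Among the 7238 transcripts with a mean of at least 20 TPM, 11 to 18 were listed at 0 in the libraries at 12 h, and 32 and 18 in non-exposed replicates 1 and 3. Non-exposed replicate 2 stood apart in zeros, with 145 of them at 0, and had the lowest mean Spearman correlation with its own group, 0.844. Non-exposed replicates 1 and 3 had 0.871 and 0.875, means that include their correlation with replicate 2. Within the 12 h group the values were 0.925 to 0.933. Results were therefore also computed without non-exposed replicate 2. In whole animals, a change in the share of a tissue and a change of RNA per cell cannot be told apart.

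At 12 h, 350 of the 12088 transcripts (2.9%) were differentially expressed genes (DEGs, which had to change by over 1 on the log2 scale in either direction with a Benjamini-Hochberg adjusted p from limma under 0.05), 212 of them higher (1.75%) and 138 lower (1.14%). Errors of fold changes are standard errors (SE). The rises included transcripts for DNA break repair, mitochondria, the ubiquitin system, autophagy and RNA processing. A secreted heat-soluble protein and abundant transcripts with no protein name fell. The names come from tables of transcripts that the study found higher, so transcripts that fell could seldom carry one. The 212 transcripts that were higher held 2.25 to 2.34% of all TPM in the 3 non-exposed libraries and 6.10 to 6.72% at 12 h. The 138 that were lower held 5.52 to 6.39% before and 1.79 to 1.97% at 12 h. The median mean level of the first set was 48.1 TPM before and 139.5 TPM at 12 h, and that of the second 131.8 and 39.4 TPM. At 1000 TPM or more there were 2 of the 212 before and 17 at 12 h, and 15 of the 138 before and 2 at 12 h. These are descriptions of sets chosen by the same values. Without non-exposed replicate 2 there were 280 DEGs, 156 higher and 124 lower, of which 227 were among the 350. Leaving out 12 h replicate 3 gave the fewest, 195, with 129 higher and 66 lower, and leaving out 12 h replicate 1 gave 208, with 123 higher and 85 lower. Without non-exposed replicate 1 the number that were lower was 87. No other gap of over 1.5 times arose from leaving out a library.

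**Figure D1:**
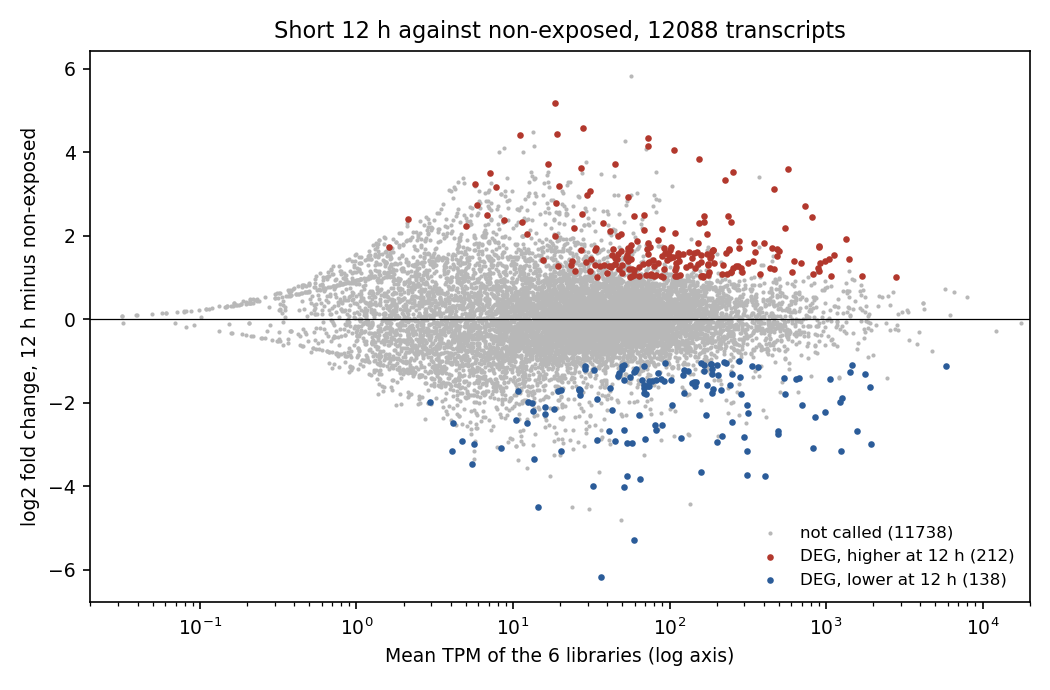
Each point is a transcript, with the mean TPM of the 6 libraries on a log x axis and the log2 fold change at 12 h against non-exposed on the y axis. The 212 red points above and the 138 blue points below are the DEGs, and grey points did not pass the test. The 100 transcripts with a mean under 0.02 TPM are not drawn.

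The results below follow 15 lists of 226 transcripts grouped by the role of the matched protein. The names come from supplementary tables of the study that list transcripts higher at some time in these same libraries, so the counts of rises in a list are no independent evidence of direction. Of all transcripts tested, 1.75% rose and 1.14% fell. Of these 12088, 934 are in those tables, among them 182 of the 212 that rose and 5 of the 138 that fell. The share of all transcripts is therefore not a like-for-like baseline for a list. A share above it does not set a list apart from other transcripts in those tables. Over all lists, 69 members rose and 2 fell. Without non-exposed replicate 2 the rises were 52, and without 12 h replicate 1 they were 44.

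Steep rises with a protein name were found in DNA repair. Among 14 transcripts for repair and replication, 7 rose (50%, against 1.75% of all transcripts) and 0 fell. The list median log2 fold change was 1.07, against 0 over all transcripts. All 12 h libraries lay above all non-exposed ones in 11 of the 14, against 11.9% of all transcripts. The count of rises was 5 to 7 when 1 library was left out, and 6 without non-exposed replicate 2. With only the compared groups in the fit it was 3.

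XRCC5 (g13857), known as Ku80, forms with its partner Ku70 the ring that clamps onto broken DNA ends in non-homologous end joining. Its levels were 42.5, 41.3 and 32.6 TPM without exposure and 509, 281.9 and 446 TPM at 12 h. The lowest exposed library was several times above the highest non-exposed one (log2 fold change 3.34 ± 0.29 SE, adjusted p = 4.88e-07). A second transcript matched to the same protein, g1132, had 24.6, 52.1 and 16.7 TPM before and 47.5, 41.1 and 48.2 TPM at 12 h. Its groups overlapped, and it did not pass the test (log2 fold change 0.69 ± 0.42 SE, adjusted p = 0.478).

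PARP3 (g7792) and PARP2-A (g7793) modify proteins at DNA breaks with ADP-ribose and have consecutive gene numbers. PARP3 had 59.1, 11.0 and 8.46 TPM in the non-exposed libraries and 333, 183 and 328 TPM at 12 h. PARP2-A had 46.5, 72.2 and 15.03 TPM and 658, 275 and 467 TPM. For both, every exposed library was above every non-exposed one, and 12 h replicate 2 was the lowest of the exposed libraries, as it was for XRCC5. The log2 fold change was 3.84 ± 0.55 (SE) for PARP3 (adjusted p = 2.33e-04) and 3.52 ± 0.46 (SE) for PARP2-A (adjusted p = 6.62e-05). With only the compared groups in the fit, neither passed (adjusted p = 0.0722 and 0.0594). That fit leaves fewer degrees of freedom, and it takes the spread from the compared groups rather than from all 9 Short groups. The library kit does not mark strand, so reads from overlapping neighbours cannot be told apart. A further PARP2 match, g9591, had 52.6, 35.8 and 29.5 TPM and 84.6, 61.4 and 60.7 TPM (log2 fold change 0.82 ± 0.27 SE, adjusted p = 0.105), and the tankyrase match g7822 did not pass either (adjusted p = 0.552).

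Enzymes that act on the photoproducts themselves were measured too. The photolyase (g7472), which splits pyrimidine dimers with the energy of light, had 24.6, 36.8 and 22.0 TPM before and 76.7, 92.0 and 62.5 TPM at 12 h. Its groups did not overlap (log2 fold change 1.46 ± 0.23 SE, adjusted p = 7.65e-04), but the call was lost with only the compared groups in the fit (adjusted p = 0.0652). The UV damage endonuclease match (g12984), which in fungi and bacteria cuts beside photoproducts, had 42.7, 42.4 and 34.0 TPM and 66.8, 71.6 and 50.9 TPM. Although its groups did not overlap either, it did not pass (log2 fold change 0.65 ± 0.31 SE, adjusted p = 0.313).

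Transcripts for 3 proteins of DNA replication rose. PCNA (g11126), the clamp that holds polymerases on DNA, had 42.0, 22.8 and 22.4 TPM before and 73.9, 87.6 and 71.7 TPM at 12 h (log2 fold change 1.44 ± 0.32 SE, adjusted p = 0.0111). That call was lost without non-exposed replicate 2 (adjusted p = 0.0558), without non-exposed replicate 3 (0.0561) and with only the compared groups in the fit (0.0802). RPA32 (g131), a subunit of the protein that coats single-stranded DNA, had 57.6, 61.3 and 58.5 TPM and 133, 123 and 108 TPM (log2 fold change 1.02 ± 0.19 SE, adjusted p = 0.00285). Without 12 h replicate 1 its log2 fold change was 0.96, under the threshold. dUTPase (g7295), which keeps uracil out of DNA, had 50.2, 42.0 and 50.0 TPM and 116, 119 and 129 TPM. Its groups stood apart (log2 fold change 1.34 ± 0.31 SE, adjusted p = 0.0164), yet the call was lost without non-exposed replicate 2, 12 h replicate 1 or 12 h replicate 3 (adjusted p = 0.0645, 0.052 and 0.0673).

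Mitochondrial transcripts rose at several steps of the respiratory chain. Of 17 transcripts for respiration and mitochondrial chaperones, 7 rose (41.2%, against 1.75% of all transcripts) and 0 fell. The list median log2 fold change was 0.97. The count of rises was 7 or 8 when 1 library was left out, and 5 with only the compared groups in the fit. BCS1 (g2185), an ATPase that inserts the iron-sulfur protein into complex III, had 93.1, 123 and 48.6 TPM without exposure and 1429, 722 and 996 TPM at 12 h (log2 fold change 3.60 ± 0.34 SE, adjusted p = 1.25e-06). The smallest exposed value was far above the largest non-exposed one. Its neighbour g2186, which has no name, had 2.37, 9.69 and 11.9 TPM and 175, 103 and 138 TPM (log2 fold change 4.14 ± 0.42 SE, adjusted p = 3.22e-06).

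The iron-sulfur subunit of succinate dehydrogenase (g10987) belongs to complex II. It had 159, 192 and 171 TPM before and 610.1, 618 and 640.4 TPM at 12 h, with exposed libraries that differed little from each other (log2 fold change 1.84 ± 0.21 SE, adjusted p = 1.52e-05). GHITM (g13195), a protein of the inner mitochondrial membrane, had 201, 229.8 and 205 TPM and 768, 680.0 and 634 TPM (log2 fold change 1.70 ± 0.17 SE, adjusted p = 4.09e-06). Cytochrome c (g2875), which carries electrons from complex III to complex IV, had 213, 211 and 141 TPM and 487, 501 and 491 TPM (log2 fold change 1.41 ± 0.23 SE, adjusted p = 8.14e-04). In all 3, the groups did not overlap and the call held under every alternative tried.

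A complex I subunit (NDUFS7, g5497) and the next gene number, COQ7 (g5498), a hydroxylase of ubiquinone synthesis, rose side by side. NDUFS7 had 70.7, 79.3 and 62.9 TPM before and 206, 199 and 238 TPM at 12 h (log2 fold change 1.58 ± 0.29 SE, adjusted p = 0.00221). COQ7 had 24.7, 87.2 and 28.1 TPM and 175, 176 and 156 TPM (log2 fold change 2.07 ± 0.33 SE, adjusted p = 6.91e-04). Non-exposed replicate 2 was the highest of its group for COQ7 but still below every exposed library. With only the compared groups in the fit the COQ7 call was lost (adjusted p = 0.113), as was that of CHCHD2 (g3585), which had 326, 156 and 262 TPM and 837, 729.8 and 673 TPM (log2 fold change 1.64 ± 0.26 SE, adjusted p = 6.91e-04, and 0.0587 in that fit).

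Other members of the list did not pass the test. ATP synthase subunit O (g676) had 293, 386 and 379.8 TPM before and 344, 284 and 301 TPM at 12 h (log2 fold change -0.18 ± 0.22 SE, adjusted p = 0.771), with overlapping groups. The mitochondrial chaperonin of 60 kDa (g10900) had 212, 184 and 215 TPM and 222, 218 and 153 TPM (log2 fold change -0.06 ± 0.20 SE, adjusted p = 0.937). The alternative oxidase (g11363), which passes electrons to oxygen without complexes III and IV, had 64.6, 44.1 and 43.0 TPM and 128, 94.4 and 77.5 TPM, with groups that did not overlap and an adjusted p of 0.1.

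Iron-sulfur clusters are built in mitochondria and are needed by complexes I, II and III and by many repair enzymes. Of 10 transcripts for cluster and cytochrome assembly, 5 rose (50%, against 1.75% of all transcripts) and 0 fell. The list median log2 fold change was 1.22. In all 10 the 12 h libraries lay above all non-exposed ones, against 11.9% of all transcripts. The count of rises was only 2 or 3 with any 1 library left out: 3 without non-exposed replicate 2 or 3, and 2 without any of the other 4. With only the compared groups in the fit it was 1. Cysteine desulfurase (g6954), which frees the sulfur for the cluster, had 54.6, 68.3 and 60.8 TPM without exposure and 179, 163 and 131.2 TPM at 12 h (log2 fold change 1.34 ± 0.28 SE, adjusted p = 0.00639), a call that held under every alternative. Lipoyl synthase (g5798), itself an iron-sulfur enzyme, had 120.3, 58.7 and 69.6 TPM and 286, 226 and 194 TPM (log2 fold change 1.54 ± 0.24 SE, adjusted p = 6.57e-04, and 0.0778 with only the compared groups in the fit). Frataxin (g10681), an activator of the desulfurase, had 8.15, 0 and 25.3 TPM and 48.3, 49.5 and 55.3 TPM. Its call (log2 fold change 3.06 ± 0.81 SE, adjusted p = 0.034) was lost without any library but non-exposed replicate 3 (adjusted p = 0.0554 to 0.206).

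The ubiquitin and proteasome list had 15 rises (50%, against 1.75% of all transcripts) and 0 falls among 30 transcripts. Its median log2 fold change was 1.09. In 27 members all 12 h libraries lay above all non-exposed ones, against 11.9% of all transcripts. The list had 10 to 14 rises when 1 library was left out and 11 without non-exposed replicate 2. With only the compared groups in the fit it had 9. Ubiquitin marks proteins for the proteasome, which unfolds and degrades them. Polyubiquitin (g1328) was the most abundant member, with 826, 824 and 627 TPM before and 1887, 2147 and 2104 TPM at 12 h (log2 fold change 1.44 ± 0.19 SE, adjusted p = 6.62e-05). Peptide N-glycanase (g12708), which strips sugars from misfolded glycoproteins before they are degraded, had 288, 205 and 242 TPM and 1588, 913 and 1637 TPM (log2 fold change 2.45 ± 0.26 SE, adjusted p = 7.66e-06). Both had groups far apart and kept their calls under every alternative.

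Ligases and factors of endoplasmic reticulum quality control rose with them. ARIH1 (g2446), a ligase that ubiquitinates the clients of cullin complexes, had 55.9, 47.0 and 58.2 TPM without exposure and 159, 146 and 142 TPM at 12 h (log2 fold change 1.46 ± 0.18 SE, adjusted p = 2.33e-05). USP14 (g13012), a proteasome-bound enzyme that removes ubiquitin, had 61.7, 62.5 and 48.7 TPM and 169, 158 and 181 TPM (log2 fold change 1.55 ± 0.21 SE, adjusted p = 8.73e-05). For these transcripts the spread within a group was small beside the gap between groups. AN1-type zinc finger protein 2B (g9096), a proteasome cofactor, had 166, 94.9 and 101 TPM and 472, 416 and 410.4 TPM (log2 fold change 1.88 ± 0.30 SE, adjusted p = 7.65e-04). UFD1 (g946), a partner of the ATPase p97 in pulling proteins out of the endoplasmic reticulum, had 54.3, 33.3 and 41.0 TPM and 121, 103 and 119.9 TPM (log2 fold change 1.42 ± 0.25 SE, adjusted p = 0.00198). RNF146 (g11088) is a ligase that recognises poly(ADP-ribose), the chain that PARP enzymes make. It had 38.3, 24.0 and 40.2 TPM and 188, 88.3 and 125 TPM (log2 fold change 1.90 ± 0.32 SE, adjusted p = 0.00127), and missed the threshold with only the compared groups in the fit (adjusted p = 0.062).

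The regulatory subunits of the proteasome given here, which come from the study's tables of rises, changed by about the fold threshold. Regulatory subunit 4 (g3560), an ATPase of the base, had 123, 134 and 86.5 TPM before and 217, 248 and 250.1 TPM at 12 h (log2 fold change 1.07 ± 0.17 SE, adjusted p = 8.14e-04). Without non-exposed replicate 3 its log2 fold change was 0.88, and with only the compared groups in the fit its adjusted p was 0.0622. Subunit 10B (g6242) changed by 0.93 ± 0.24 (SE) on the log2 scale (adjusted p = 0.0276), under the fold threshold. The small ubiquitin-related modifier (g8886) had 244, 411 and 367 TPM and 516, 505 and 547 TPM, and its groups did not overlap but it was not called (log2 fold change 0.65 ± 0.34 SE, adjusted p = 0.382).

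Autophagy and small GTPases had 11 rises and 0 falls among 15 transcripts. In each of the 15 all 12 h libraries lay above all non-exposed ones, against 11.9% of all transcripts. The rises were 73.3% of the list, against 1.75% of all transcripts, with a median log2 fold change of 1.21. All 15 are in the study's tables of rises, and lists were chosen with earlier results known. Shares are therefore not ranked between lists. With only the compared groups in the fit there were 4 rises. The count dropped to 5 to 7 when 1 library was left out: 7 without non-exposed replicate 1, non-exposed replicate 3 or 12 h replicate 1, 6 without non-exposed replicate 2 or 12 h replicate 2, and 5 without 12 h replicate 3. Sequestosome-1 is the receptor that ties ubiquitinated cargo to the growing autophagosome. The transcript g422 had 584, 539 and 537 TPM without exposure and 1975, 2159 and 2204 TPM at 12 h, with little spread in either group (log2 fold change 1.93 ± 0.17 SE, adjusted p = 9.98e-07). A second transcript matched to it, g5512, had 507, 348 and 292 TPM and 749, 713 and 1032 TPM (log2 fold change 1.14 ± 0.24 SE, adjusted p = 0.00782). Its groups lay closer together, and the call was lost without non-exposed replicate 3 (adjusted p = 0.0514), without 12 h replicate 3 (0.062) and with only the compared groups in the fit (0.107).

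Membrane shaping proteins of the endoplasmic reticulum were in the same list. Reticulon-4 (g2943), which curves its tubules, had 348, 582 and 356 TPM and 1532, 1256 and 1360 TPM (log2 fold change 1.73 ± 0.19 SE, adjusted p = 1.04e-05). Atlastin-2 (g10524), a GTPase that fuses them, had 66.0, 49.2 and 43.0 TPM and 134, 157 and 129.9 TPM (log2 fold change 1.41 ± 0.25 SE, adjusted p = 0.00221). Both calls held under every alternative. WIPI4 (g9408), a phosphoinositide-binding protein of early autophagosomes, had 73.9, 51.6 and 42.2 TPM and 108, 127 and 151 TPM (log2 fold change 1.21 ± 0.21 SE, adjusted p = 0.00153, and 0.0886 with only the compared groups in the fit). Rab7 (g7011), which guides late endosomes and autophagosomes to lysosomes, had 278, 283 and 293 TPM and 511, 516 and 540.2 TPM. Its libraries agreed closely within each group, but its change of 0.87 ± 0.21 (SE) on the log2 scale (adjusted p = 0.0175) was under the fold threshold. Rab14, Rab32, Rab35, a Cdc42 match (g282) and the autophagy kinase match ATG1b (g12306) were called with adjusted p = 0.0274, 0.0265, 0.0295, 0.0352 and 0.0257. Each of those 5 calls was lost without at least 4 of the 6 libraries, with adjusted p up to 0.143.

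**Figure D2:**
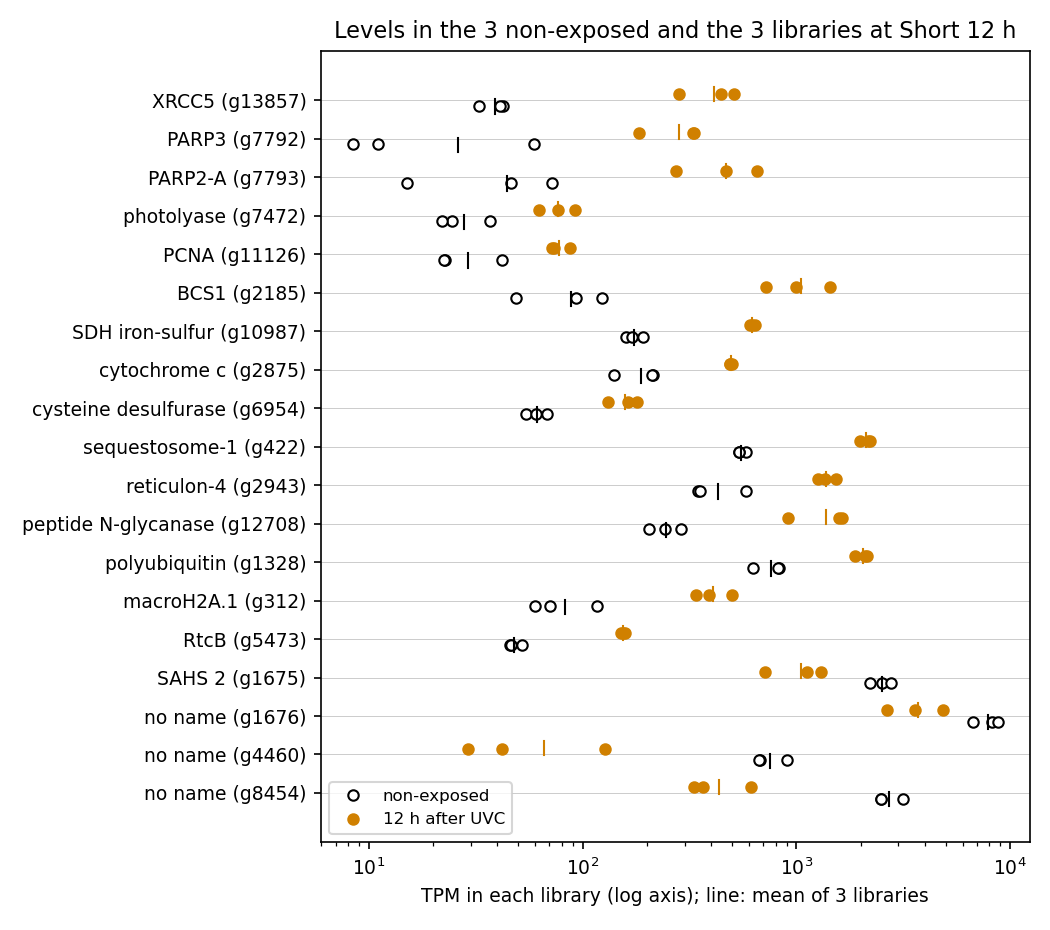
TPM of 19 transcripts in each library on a log x axis, with open circles for the 3 non-exposed and filled circles for the 3 libraries at 12 h, and a short line at each mean. The exposed libraries lie to the right of the non-exposed ones for the upper 15 transcripts and to the left for the lower 4, with no overlap in any of the 19.

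Of 28 antioxidant transcripts, 3 rose (10.7%, against 1.75% of all transcripts) and 0 fell. Since 27 of the 28 are in the study's tables of rises, 1.75% is not a like-for-like baseline. The list median log2 fold change was 0.54. The exposed libraries were all above the non-exposed ones in 9 members, against 11.9% of all transcripts. They were all below in 2, against 10.6%. A single rise was left without non-exposed replicate 1, non-exposed replicate 2 or 12 h replicate 1, and 2 rises without 12 h replicate 3. With only the compared groups in the fit there was also 1 rise. The one called under every alternative was TXNDC17 (g11396), a small thioredoxin-related protein, with 124, 126 and 134 TPM before and 469, 336 and 476 TPM at 12 h (log2 fold change 1.71 ± 0.21 SE, adjusted p = 3.15e-05). Thioredoxin-2 (g11519) was called (log2 fold change 1.05 ± 0.25 SE, adjusted p = 0.0187), and glutathione hydrolase (g5508) was too (log2 fold change 1.11 ± 0.28 SE, adjusted p = 0.0264). With 1 library left out the former missed the threshold in 4 of 6 cases (non-exposed replicates 1 and 2, adjusted p = 0.0955 and 0.0808, and 12 h replicates 1 and 3, 0.0991 and 0.0855), and the latter in 4 of 6 (non-exposed replicates 1 and 2, 0.0756 and 0.12, and 12 h replicates 1 and 2, 0.1 and 0.0995). Peroxiredoxin-2 (g6996), an abundant peroxidase, had 569.8, 736 and 818 TPM and 1042, 811 and 1166 TPM, with groups that overlapped (log2 fold change 0.51 ± 0.19 SE, adjusted p = 0.17). The 5 Cu-Zn superoxide dismutases had log2 fold changes from -0.64 (g455) to 0.78 (g456), and none passed.

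The heat-soluble proteins, which tardigrades make in large amounts and which protect other proteins during drying, gave 1 call among 9 transcripts. The 4 cytosolic ones (CAHS) had log2 fold changes of 0.87, 1.14, 1.14 and 1.39 for g5971, g675, g612 and g7798, and none was called (adjusted p = 0.0562 to 0.233). Each was lowest at 12 h in replicate 2. For g675 the exposed values were 1536, 444 and 1799 TPM and the non-exposed ones 458, 505 and 491 TPM, so the groups overlapped only through that library. The kallisto program shares reads out among similar copies, so levels of single members of these families are uncertain. Without 12 h replicate 2, 2 members of the list, g675 and g7798, passed as higher, and with array weights 4 did. Of the 5 secreted ones (SAHS), g1675 fell, with 2220, 2521 and 2785 TPM before and 1118, 716 and 1305 TPM at 12 h (log2 fold change -1.30 ± 0.25 SE, adjusted p = 0.0043, and 0.0873 with only the compared groups in the fit). Of the others, g1122 and g1624, had all exposed libraries below all non-exposed ones and were not called (log2 fold change -0.99 ± 0.27 SE, adjusted p = 0.0367, and log2 fold change -1.24 ± 0.37 SE, adjusted p = 0.0622). The former passed as lower without 12 h replicate 1 or 3, and the latter without non-exposed replicate 2.

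Transcription and RNA processing had 14 rises (48.3%, against 1.75% of all transcripts) and 0 falls among 29 transcripts. The list median log2 fold change was 1.14. The rises were 12 without non-exposed replicate 1, 10 without non-exposed replicate 2, non-exposed replicate 3 or 12 h replicate 3, and 8 without 12 h replicate 1 or 2. With only the compared groups in the fit there were 8. RtcB (g5473), the ligase that joins the exons of spliced tRNAs, had 45.7, 46.4 and 51.9 TPM without exposure and 158, 154 and 151 TPM at 12 h (log2 fold change 1.66 ± 0.19 SE, adjusted p = 1.32e-05). Its libraries differed little within either group. A TBP-like factor (g11477), related to the protein that binds the TATA box, had 45.8, 75.7 and 64.7 TPM and 171, 198 and 180.4 TPM (log2 fold change 1.57 ± 0.24 SE, adjusted p = 3.58e-04). TFIIB (g6862), which places RNA polymerase II at the start site, had 59.6, 59.9 and 76.3 TPM and 176, 239 and 194 TPM (log2 fold change 1.62 ± 0.32 SE, adjusted p = 0.00445). LSm4 (g10799), a part of the ring on U6 RNA and on decaying messengers, had 87.8, 88.4 and 81.4 TPM and 237, 215 and 201 TPM (log2 fold change 1.33 ± 0.20 SE, adjusted p = 3.40e-04). In all of these the groups were well separated, and the calls held under every alternative. RRP40 (g7715), a subunit of the RNA-degrading exosome, had 20.8, 34.9 and 39.1 TPM and 149, 94.1 and 98.6 TPM (log2 fold change 1.83 ± 0.32 SE, adjusted p = 0.0015, and 0.0554 with only the compared groups in the fit). RNA polymerase II subunits were not called: the largest subunit (RPB1, g10182) and RPB2 (g6704) had log2 fold changes of 0.10 ± 0.47 and 0.58 ± 0.39 (SE, adjusted p = 0.959 and 0.535).

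Ribosomal transcripts had a median change close to 0. The median log2 fold change over the 37 members for the ribosome and its assembly was 0.06. Of them 3 rose (8.1%, against 1.75% of all transcripts) and 0 fell. With only the compared groups in the fit 2 rose. Since all 37 are in the study's tables of rises, 1.75% is not a like-for-like baseline. The 3 that rose were assembly factors and none was a ribosomal protein. RIO3 (g3476), a kinase of small subunit maturation, had 88.1, 84.2 and 60.9 TPM and 225, 176 and 177 TPM (log2 fold change 1.31 ± 0.22 SE, adjusted p = 0.00135), and eIF6 (g8691), which keeps the large subunit from joining too early, had 124, 105 and 78.3 TPM and 219, 264 and 264 TPM (log2 fold change 1.29 ± 0.24 SE, adjusted p = 0.00332). The pno1 match (g51), a small subunit assembly factor, was called (log2 fold change 2.16 ± 0.52 SE, adjusted p = 0.0188) but not without non-exposed replicate 2 (adjusted p = 0.118), 12 h replicate 1 (0.0501) or 12 h replicate 3 (0.0984). Ribosomal protein L10 (g1146) was an abundant member of the rest, with 896, 656 and 677 TPM before and 768, 673 and 808 TPM at 12 h (log2 fold change 0.02 ± 0.13 SE, adjusted p = 0.967).

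Histones had 4 rises (50%, against 1.75% of all transcripts) and 0 falls among 8 transcripts. There were 2 rises without non-exposed replicate 1, non-exposed replicate 3, 12 h replicate 1 or 12 h replicate 3. With only the compared groups in the fit there were 3. MacroH2A.1 (g312), a variant whose macrodomain in vertebrates binds ADP-ribose, had 117, 59.9 and 70.8 TPM without exposure and 498, 339 and 388 TPM at 12 h (log2 fold change 2.33 ± 0.27 SE, adjusted p = 1.65e-05). Its groups lay far apart, and its neighbour g311, which has no name, was also higher. Histone H2A (g3276) had 305, 489 and 382 TPM and 875, 1090 and 994 TPM (log2 fold change 1.35 ± 0.22 SE, adjusted p = 8.14e-04). Histone H4 (g3279) had the largest log2 fold change of any transcript, with 1.02e-05, 6.15 and 1.34e-08 TPM before and 85.3, 104 and 144 TPM at 12 h, but it varied over the Short groups and was not called (log2 fold change 5.83 ± 1.89 SE, adjusted p = 0.096), although it passed with array weights and with only the compared groups in the fit. Histone messengers of the replicating kind often lack a poly(A) tail, so their level in poly(A)-selected RNA is not the level of all histone messengers.

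**Figure D3:**
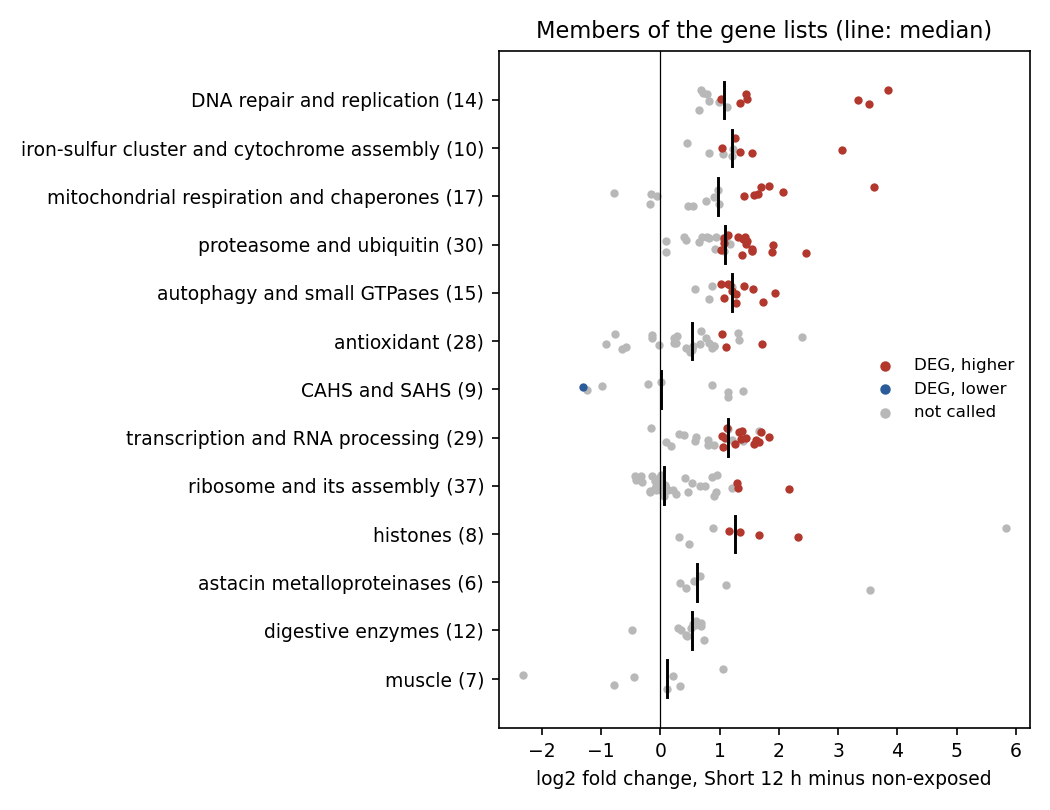
Each point is a list member, with its log2 fold change at 12 h against non-exposed on the x axis and its list, with the number of members, on the y axis. Red points are DEGs that were higher, the single blue point is the SAHS transcript g1675 that was lower, and black lines are list medians. These run from 0.97 to 1.25 for repair, mitochondria, iron-sulfur assembly, ubiquitin, autophagy, RNA processing and histones. They lie near 0 for ribosomes and the heat-soluble proteins. The heat-soluble median pools members from -1.30 to 1.39, with the CAHS transcripts above 0.

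Markers of gut, muscle and yolk were looked at for the makeup of the libraries, and none was called. All 12 digestive, 7 muscle and 1 yolk transcripts are in the study's tables of rises. They were thus selected for rising at some time in these libraries and are no neutral check of tissue shares. The 12 digestive enzymes, such as chymotrypsin-like proteases and amylase of the gut, had 0 calls. In 8 of them all 12 h libraries lay above all non-exposed ones, against 11.9% of all transcripts. The summed level of the 12 was 4157 to 4610 TPM in the non-exposed libraries and 5577 to 7420 TPM at 12 h. The 7 muscle transcripts had 0 calls and sums of 726 to 1162 TPM and 582 to 814 TPM. Vitellogenin-6 (g772), a yolk precursor, had 1422, 1682 and 1031 TPM and 1252, 448 and 1178 TPM (log2 fold change -0.63 ± 0.41 SE, adjusted p = 0.51). None of these markers was listed at exactly 0 in any of the 6 libraries, although a troponin T isoform was near 0 in 12 h replicate 3. The part of tissue shares in the results above was not tested. The 6 astacin metalloproteinases had 0 calls. One of them, g11208, which passed without non-exposed replicate 2, without 12 h replicate 2 and with array weights, had 24.5, 50.5 and 30.7 TPM and 89.0, 50.0 and 90.3 TPM (log2 fold change 1.11 ± 0.34 SE, adjusted p = 0.0699). The steepest, the isoform g11190.t2, had 26.4, 0 and 56.9 TPM and 173, 117 and 119.9 TPM (log2 fold change 3.54 ± 1.19 SE, adjusted p = 0.112), and it passed without non-exposed replicate 3.

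Of the genes that the study examines by gene number, 1 was called among those looked up here. Only the members named below were looked up, not the whole g12777 family. The putative peroxidase g12777 had 364, 218 and 227 TPM before and 219, 191 and 300.1 TPM at 12 h, with overlapping groups (log2 fold change -0.17 ± 0.24 SE, adjusted p = 0.808). A member of the same gene family, g2856, fell, with 287, 281 and 302 TPM and 141, 81.1 and 134 TPM and groups far apart (log2 fold change -1.32 ± 0.21 SE, adjusted p = 6.05e-04, and 0.0587 with only the compared groups in the fit). In this multi-copy family kallisto shares reads out among similar copies, and the study lists g2856 among gene models that were predicted wrongly, so its level is uncertain. Of the other family members that the study cloned, g243.t1, g245.t1, g246.t1 and g779.t1 had log2 fold changes of 0.31, 0.28, -0.60 and 0.51 and did not pass (adjusted p = 0.865, 0.831, 0.284 and 0.418). The last of them, g244.t1, changed by 0.92 ± 0.24 SE on the log2 scale (adjusted p = 0.0277), under the fold threshold. From another family, g241 had 71.5, 137 and 104 TPM and 238, 115 and 227 TPM, and overlapped in 12 h replicate 2 (log2 fold change 0.87 ± 0.45 SE, adjusted p = 0.378).

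The largest rises on the log2 scale were mostly in transcripts without a name. By rule these are the 10 steepest DEGs whose groups did not overlap, and PARP3 was the one of them with a name. Their levels stayed far under those of sequestosome-1 or polyubiquitin. The transcripts g6183 and g10215 were listed at 0 in all non-exposed libraries and had 55.7, 30.3 and 25.3 TPM and 36.0, 17.4 and 12.9 TPM at 12 h (adjusted p = 0.0201 and 7.19e-05). The former was lost without any 1 of the 6 libraries (adjusted p = 0.0502 to 0.0892), while the latter was not. The transcripts g2576, g1401 and g2186 kept their calls throughout. For g2576 the values were 4.33, 0 and 1.19 TPM before and 59.4, 37.4 and 66.0 TPM at 12 h (log2 fold change 4.57 ± 0.95 SE, adjusted p = 0.00656), and for g1401 2.57, 0.203 and 0 TPM and 56.7, 19.6 and 35.2 TPM (log2 fold change 4.43 ± 0.59 SE, adjusted p = 8.73e-05). A further rise, g7906, went from 0, 19.4 and 13.1 TPM to 131.03, 162 and 111 TPM (log2 fold change 4.35 ± 0.81 SE, adjusted p = 0.00304, and 0.141 with only the compared groups in the fit). The remaining 3, g1587, g1843 and g13039, had log2 fold changes of 4.06, 3.72 and 3.72. Their calls were lost for g1587 without non-exposed replicate 2 or any 12 h library (adjusted p = 0.0777 to 0.169), for g1843 without any library but non-exposed replicate 3 (0.108 to 0.196) and for g13039 without non-exposed replicate 2 or 12 h replicate 3 (0.0527 to 0.0636).

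In TPM, the 5 largest rises were g8648, sequestosome-1, polyubiquitin, thioredoxin-2 and peptide N-glycanase. The transcript g8648, which has no name, had 1754, 1899 and 1891 TPM and 3636, 3738 and 3875 TPM. Its exposed libraries were all well above the others, but it lay just past the fold threshold (log2 fold change 1.02 ± 0.28 SE, adjusted p = 0.0378) and was not called without any 1 library (adjusted p = 0.0888 to 0.124).

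The falls are described by gene number, since 137 of the 138 have no name in the tables used. Those tables list transcripts that the study found higher, so the missing names are no trait of the falls. The SAHS transcript g1675 is the one with a name. The largest fall in TPM was its neighbour g1676, with 6689, 8261 and 8724 TPM without exposure and 3596, 2659 and 4853 TPM at 12 h (log2 fold change -1.13 ± 0.21 SE, adjusted p = 0.00359). Both neighbours thus moved down together, and both were lowest at 12 h in replicate 2. Without that library g1676 had a log2 fold change of -0.91, and with only the compared groups in the fit its adjusted p was 0.177. The transcript g8454 had 3143, 2485 and 2488 TPM and 616, 364 and 330.4 TPM (log2 fold change -2.67 ± 0.61 SE, adjusted p = 0.0135), and was lost without non-exposed replicate 1 or 12 h replicate 3 (adjusted p = 0.0519 and 0.0673). The transcript g4460 had 906, 673 and 670.4 TPM and 41.8, 127 and 29.1 TPM (log2 fold change -3.76 ± 0.76 SE, adjusted p = 0.00585), with its neighbour g4461 also lower, and kept its call under every alternative. 

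Some falls reached the bottom of the scale. The transcript g9255 had 53.6, 91.3 and 74.1 TPM before and 0, 4.77e-04 and 0 TPM at 12 h (adjusted p = 0.00807), and g9970, a weak transcript, had 8.26, 18.3 and 6.47 TPM and was listed at 0 in all 3 libraries at 12 h (adjusted p = 0.00639). Both calls held under every alternative in which they were tested, 20 for g9255 and 19 for g9970. The other 7 of the steepest falls were g338, g1174, g328, g7700, g5687, g3009 and g2854, from -5.28 to -3.74 in log2 fold change. Each was lost without at least 1 library: g338 without non-exposed replicate 1 or 12 h replicates 1 or 3 (adjusted p = 0.0575 to 0.0796), g1174 without any but non-exposed replicate 2 (0.0542 to 0.0871), g328 and g7700 without 12 h replicate 3 (0.0509 and 0.0503), g5687 without any but 12 h replicate 2 (0.0645 to 0.14), g3009 without non-exposed replicate 3 or 12 h replicates 1 or 3 (0.0528 to 0.0849), and g2854 without non-exposed replicates 1 or 2 or 12 h replicate 3 (0.0527 to 0.135). Among the abundant ones, g2957 had 4660, 2158 and 3065 TPM and 346, 1217 and 148 TPM (log2 fold change -2.98 ± 0.79 SE, adjusted p = 0.0343), and g5171 had 3123, 1427 and 1968 TPM and 216, 707 and 80.0 TPM (log2 fold change -3.15 ± 0.65 SE, adjusted p = 0.00639). In both, 12 h replicate 2 was the highest of the exposed libraries and 12 h replicate 3 the lowest. Without 12 h replicate 3 the adjusted p was 0.218 for g2957, which was also lost without 4 of the other 5 libraries (non-exposed replicates 1, 2 and 3 with 0.126, 0.058 and 0.0876, and 12 h replicate 1 with 0.115), and 0.0617 for g5171. The remaining large fall, g4549, had 2789, 3487 and 2400 TPM and 1095, 1017 and 734 TPM (log2 fold change -1.61 ± 0.38 SE, adjusted p = 0.0183), and was lost without non-exposed replicates 1 or 2 or 12 h replicate 3 (0.0502 to 0.0984).

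Some DEGs had consecutive gene numbers and were taken as neighbours. Of the 138 that were lower, 14 (10.1%) had a neighbour by number that was also lower, against 1.99% of the 11649 genes tested. These were 7 pairs, among them g1675 with g1676, g4460 with g4461 and g4549 with g4550. Of the 212 that were higher, 10 (4.72%) had such a neighbour, against 3.17%. Those were 5 pairs: g311 with g312, g1400 with g1401, g2185 with g2186, g5497 with g5498 and g7792 with g7793. Whether the pairs are copies of a family or share reads was not tested.

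The question of whether the response was still moving at 12 h was put to the libraries taken 3 h earlier. No transcript passed between 9 and 12 h (0 by limma, 0%), where 682 (5.64%) had an unadjusted p under 0.05, against 1882 (15.6%) for 12 h against non-exposed. With array weights the count was 97, with no filter on low values 3, and without 9 h replicate 1 it was 1. XRCC5 had 468, 408 and 349 TPM at 9 h, much like its values at 12 h (log2 difference of -0.02 ± 0.29 SE, adjusted p = 1). BCS1 had 1290, 1311 and 1249 TPM at 9 h (log2 difference of -0.35 ± 0.34 SE, adjusted p = 1). For g9255 the 9 h values were 58.1, 35.8 and 13.7 TPM, and the drop to near 0 at 12 h did not pass (log2 difference of -4.99 ± 1.31 SE, adjusted p = 0.75). The 5 smallest adjusted p values of that comparison belonged to g3320, g1362, g5295, g4467 and g2604. None reached the threshold. Of these g3320 was listed at 0 in all non-exposed and 9 h libraries and had 31.2, 2.06 and 2.07 TPM at 12 h, so that 1 library held most of it.

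The means over the whole Short time course place the 12 h levels in order. The mean level of XRCC5 was 38.8 TPM in non-exposed animals, 25.1 TPM at 1 h, 66.4 TPM at 2 h, 30.2 TPM at 3 h, 82.3 TPM at 4 h, 174 TPM at 6 h, 408 TPM at 9 h and 412 TPM at 12 h. PARP2-A had 44.6 TPM in non-exposed animals, 29.6 TPM at 1 h, 57.3 TPM at 2 h, 35.8 TPM at 3 h, 124 TPM at 4 h, 203 TPM at 6 h and 466 TPM at 12 h. Both means were below the non-exposed ones at 1 and 3 h, above them at 2 h, and above them at every time from 4 h on. Cytochrome c had already reached 497 TPM at 2 h, close to its 493 TPM at 12 h, and the photolyase 75.8 TPM at 2 h against 77.1 TPM at 12 h. Sequestosome-1 had mean levels of 836 TPM at 2 h, 1401 TPM at 6 h and 2113 TPM at 12 h. Over the 212 DEGs that were higher at 12 h the median mean level was 48.1 TPM in non-exposed animals, 79.5 TPM at 2 h, 109.1 TPM at 6 h, 124.1 TPM at 9 h and 139.5 TPM at 12 h. Over the 138 that were lower it was 131.8 TPM in non-exposed animals, 73.0 TPM at 1 h, 52.8 TPM at 6 h, 55.9 TPM at 9 h and 39.4 TPM at 12 h. For g8454 the means were 2705 TPM before exposure, 1052 TPM at 1 h and 437 TPM at 12 h. The sets were chosen at 12 h and the groups share the non-exposed libraries, so these medians are descriptions. 

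**Figure D4:**
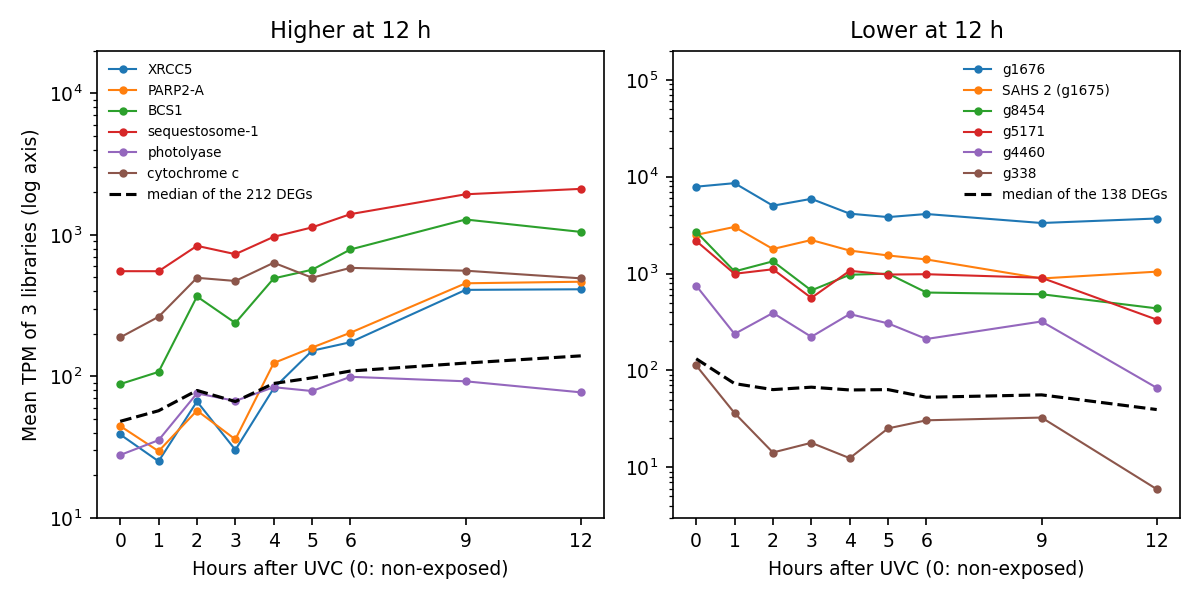
Mean TPM of 3 libraries on a log y axis against hours after UVC, where 0 h is the non-exposed group, for 6 transcripts that were higher (left) and 6 that were lower (right) at 12 h. The means of XRCC5 and PARP2-A are above the non-exposed ones at 2 h and from 4 h on, that of cytochrome c from 1 h on, and the dashed medians run from 48.1 to 139.5 TPM for the 212 higher and from 131.8 to 39.4 TPM for the 138 lower DEGs.

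The Long time course measured 12 h after the same dose in libraries that share none with the Short ones. Of the 212 transcripts that were higher, 195 (92%) had a log2 fold change above 0 there, against 51.4% of all transcripts, and in 98 (46.2%) the Long groups did not overlap in the same direction, against 8.22%. Of the 138 that were lower, 128 (92.8%) were below 0, against 48.5% of all, and in 79 (57.2%) the groups did not overlap, against 7.49%. Leaving out any 1 Long library kept these shares at 87.7 to 92.9% for the higher and 90.6 to 94.2% for the lower set. Calls were fewer: Long 12 h had 66 higher (0.546%) and 32 lower (0.265%), of which 20 and 5 were among the Short DEGs of that direction, with 0 called the other way. The median log2 fold change of the 212 was 1.51 in Short and 0.94 in Long, and that of the 138 was -1.71 and -1.04. Values used to choose a set are larger by that choice in the data that chose it. Long libraries listed 95 to 257 of the 7238 abundant transcripts at 0, more than 5 of the 6 Short libraries.

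In that course XRCC5 had 57.3, 92.5 and 76.2 TPM in the non-exposed group and 309, 288 and 402 TPM in the Long group at 12 h (Long log2 fold change 2.14 ± 0.43 SE, adjusted p = 0.0291). PARP3 had 49.3, 59.1 and 14.6 TPM and 124, 117 and 209 TPM (Long log2 fold change 2.01 ± 0.44 SE, adjusted p = 0.041). These were rises without overlap from a second set of animals. BCS1 had 182, 178 and 156 TPM and 627, 445 and 716 TPM (Long log2 fold change 1.76 ± 0.29 SE, adjusted p = 0.0145), and the succinate dehydrogenase subunit 176, 106 and 104 TPM and 350.0, 273 and 429 TPM (Long log2 fold change 1.46 ± 0.25 SE, adjusted p = 0.0193). Others were apart without passing the test, such as sequestosome-1 (g422), with 675.4, 536 and 624 TPM and 1473, 1294 and 1202 TPM (Long log2 fold change 1.11 ± 0.29 SE, adjusted p = 0.0856), and SAHS g1675, with 1532, 2894 and 1743 TPM and 654, 1075 and 767 TPM (Long log2 fold change -1.28 ± 0.46 SE, adjusted p = 0.224). Some Short calls were not seen there: frataxin had 1.65, 75.4 and 49.6 TPM and 32.2, 22.2 and 16.0 TPM (Long log2 fold change 0.12 ± 0.96 SE, adjusted p = 0.997), and g10215 was listed at 0 in all 6 Long libraries.

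The tables that gave the names also list rises in the Long libraries, so counts by list are no independent evidence of direction there either. Among the lists, all 14 repair transcripts and all 10 iron-sulfur and cytochrome assembly transcripts had a Long log2 fold change above 0. Their medians were 1.05 and 0.92. Over all transcripts 51.4% were above 0 in Long, with a median of 0.005. The ubiquitin list had 28 of 30 above 0 and a median of 0.69, autophagy and small GTPases 12 of 15 and 0.88, and RNA processing 28 of 29 and 0.78. The ribosome list had 35 of 37 above 0 in Long with a median of 0.68, against 0.06 in Short. Histones had 5 of 8 above 0, none of them called in Long, with a median of 0.35, against 1.25 in Short.

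**Figure D5:**
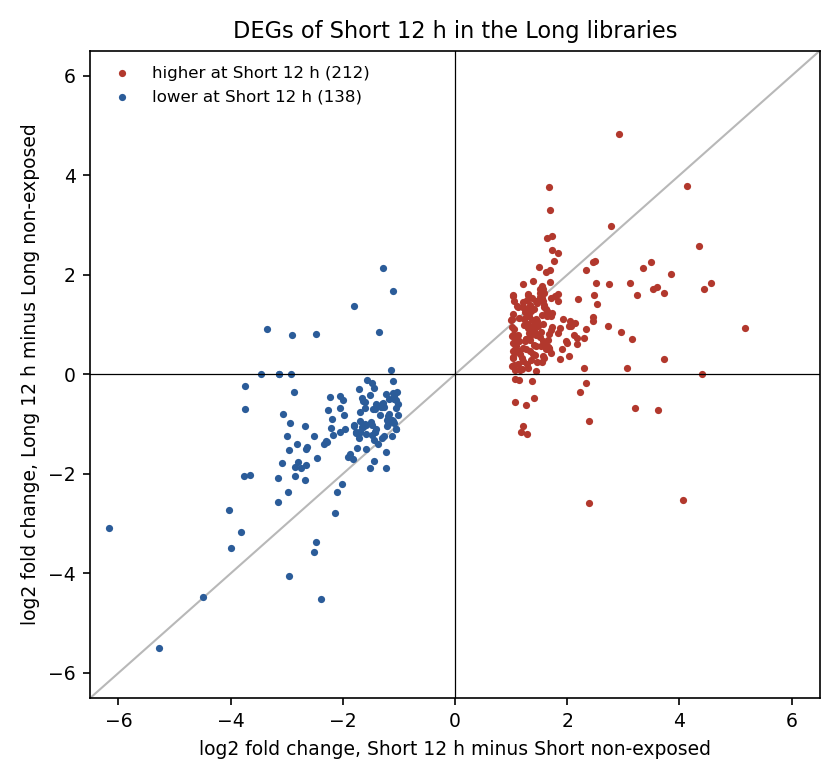
Each point is 1 of the 350 DEGs of Short 12 h, with its log2 fold change in Short on the x axis and in Long, from separate libraries, on the y axis, and a grey line where both are equal. Of the 212 red points 195 lie above 0 on the y axis, and of the 138 blue points 128 lie below it.

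The difference between the Short and the Long response was also tested directly, as an interaction over all 48 libraries, and 5 transcripts passed (0.0414%), with 872 (7.21%) at an unadjusted p under 0.05. Of these, g11823 is also a Short DEG. It was listed at 0 in the Short non-exposed libraries and had 4.39, 5.00 and 3.49 TPM at Short 12 h. The other 4 are not DEGs of Short 12 h. CD109 antigen (g13317), a member of the thioester protein family, had 110.3, 109.6 and 78.1 TPM in Short non-exposed animals and 53.2, 61.2 and 78.5 TPM at Short 12 h, while the Long libraries gave 5.46, 13.8 and 11.9 TPM before exposure and 103, 119.9 and 84.7 TPM in the Long group at 12 h (log2 difference of -3.87 ± 0.77 SE, adjusted p = 0.0499, Short response minus Long response). Leaving out any 1 of the Short libraries, or Long 12 h replicate 2, left 0 transcripts that passed. Without Long 12 h replicate 3 there was 1, and without Long non-exposed replicates 1, 2 or 3 or Long 12 h replicate 1 there were 9, 10, 15 and 25.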

How the data were processed

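The authors sequenced poly(A)-selected RNA of 30 animals per library, quantified it with kallisto 0.44.0, with its correction for sequence bias, on the species' gene set, and deposited TPM for 14532 transcripts in 48 libraries without pooling replicates. Their own DEGs, from BWA and DESeq2, rest on counts not used here, so limma replaced DESeq2. TPM keeps no depth, so precision is the spread between libraries.

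log2(TPM + 1) was fitted with limma 3.58.1 in R 4.3.3 (eBayes with a trend) over the 27 Short libraries in 9 groups, for the 12088 transcripts whose mean was at least 1 TPM. Fold changes are on that scale and understate low transcripts. The 21 Long libraries were fitted apart, and the interaction over 48. Same-numbered libraries of 12 h and non-exposed did not deviate together (r from -0.0188 to -0.00997), so no pairing was used. For 12 h with 9 h, r was 0.0422, 0.0503 and 9.95e-04 for the same numbers. It was -0.0611 to 0.0239 for unlike numbers.

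Transcripts named were list members that are DEGs (2 to 6 per list, by adjusted p) or complete a pathway, the 10 largest rises and falls in log2 fold change without overlap, the 5 largest in TPM, the 5 smallest adjusted p against 9 h and against Long, and g12777, g2856 and g241. Members and lists were chosen with earlier results of these data known. Alternatives were pseudocounts 0.1 and 5, filters, scalings, a replicate block, robust eBayes, array weights, only the compared groups, summed isoforms, thresholds and left-out libraries. Summed isoforms were used for the counts of DEGs only. Statements that a named transcript was called under every alternative leave them out. The values of 1 list member are not reported here. The fits were tested on simulated data. Plots used matplotlib 3.10.9 in Python 3.11.15. No genome was used here, so no sequences are shown.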

Additional observations from a re-analysis of the deposited data

Results flagged for a closer look

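For 5 transcripts the change at 12 h differed between the Short and the Long time course by the interaction test of limma. Each is given as the Short response minus the Long response.

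For g8328 this was a log2 difference of -7.77 ± 1.58 SE, adjusted p = 0.0499. It had 246, 419.6 and 177 TPM in Short non-exposed libraries and 208, 181 and 308 TPM at Short 12 h, whereas the Long group had 0, 8.97 and 0 TPM before exposure and 189, 689.8 and 498 TPM after 12 h. For g10836.t2, a second isoform, this was a log2 difference of -6.09 ± 1.24 SE, adjusted p = 0.0499, and it was listed at 0 in all 3 Long non-exposed libraries, with 59.4, 153 and 69.5 TPM in the Short ones. CD109 antigen (g13317) had a log2 difference of -3.87 ± 0.77 SE, adjusted p = 0.0499. In these 3 transcripts every Long non-exposed library was below every Short non-exposed one.

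The other 2 are weak transcripts. For g7686 this was a log2 difference of -4.46 ± 0.84 SE, adjusted p = 0.0344, with 2.57, 7.88 and 5.22 TPM and 0.324, 1.19 and 1.48 TPM in Short and 0, 0.266 and 0.422 TPM and 6.15, 8.40 and 9.37 TPM in Long. For g11823 this was a log2 difference of 4.98 ± 0.91 SE, adjusted p = 0.0344, with Long levels of 29.0, 5.37 and 0.722 TPM before exposure and 0.511, 0 and 0 TPM after 12 h. Each of the 5 was lost in the interaction when any 1 of the 6 Short libraries compared was left out.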

How the results depend on the processing

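The 350 DEGs became 647 with array weights (355 higher, 292 lower) and 175 with only the compared groups in the fit (113 and 62), of which 332 and 127 were among the 350, with 0 reversed. Leaving out a library gave 195 to 301 DEGs, 123 to 205 higher and 66 to 140 lower. The list members that rose were 69, with 36 in the fit of only the compared groups and 44 to 58 without a library. Those that fell were 2, with 0 in that fit and 2 or 3 without a library. The named transcripts called were 98, with 46 in that fit and 60 to 77 without a library, and 33 were called under every alternative. Between 9 and 12 h the count of 0 became 3 with no filter, 1 with a filter over the compared groups, 97 with array weights and 0 to 1 without a library. The 5 that differed between Short and Long became 1 with a pseudocount of 5, 2 with no filter, 0 with a mean TPM of at least 5, 2 with a filter over the compared groups, 2 with robust eBayes, 3 with array weights, 2 with isoforms summed and 0 to 25 without a library. The replicate block gave 336 DEGs, with 322 of the 350 kept, 0 between 9 and 12 h and 0 for Short against Long. The labels do not say whether same-numbered libraries are paired over time. Higher DEGs were 60.6% of all, 57% after median scaling and 57.5% after quantile normalization. The causes were not tested. With TPM alone, counting error cannot be separated from the spread of 3 libraries.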

Other observations

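A further 43 DEGs with a protein name lie outside the lists and were looked up after their values were seen. All 43 were higher at 12 h with groups that did not overlap, as were 211 of all 212 higher DEGs. In the Long libraries 42 had a log2 fold change above 0 and 6 were called higher. Of the 212 higher DEGs, 195 (92%) were above 0 there and 20 were called higher. Over all transcripts these shares were 51.4% and 0.546%. The names come from tables of transcripts that rose in these libraries, so the direction is no independent evidence. Several are metabolic enzymes. Protein adenylyltransferase SelO-1 (g5548), a mitochondrial enzyme that attaches AMP to other proteins, had 69.1, 88.7 and 60.5 TPM in non-exposed animals and 445, 407 and 356 TPM at 12 h (log2 fold change 2.47 ± 0.30 SE, adjusted p = 2.41e-05). Glutaryl-CoA dehydrogenase (g5408), of mitochondrial lysine breakdown, had 64.0, 58.5 and 75.4 TPM and 296, 181 and 243 TPM (log2 fold change 1.83 ± 0.20 SE, adjusted p = 7.97e-06). Selenium-binding protein 2 (g5332) had 98.7, 93.4 and 79.9 TPM and 331, 247 and 279 TPM, with the smallest adjusted p of the 43 (log2 fold change 1.64 ± 0.16 SE, adjusted p = 2.34e-06). In these transcripts the lowest exposed library was more than double the highest non-exposed one.

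Signalling and gene regulation were also represented. The kinase MAPK12 (g13163), of the stress-activated p38 group, had 150.1, 137 and 161 TPM and 317, 359 and 281 TPM (log2 fold change 1.09 ± 0.22 SE, adjusted p = 0.00608). Forkhead box protein A2 (g2246), a transcription factor of gut development in other animals, had 26.3, 15.2 and 34.2 TPM and 75.6, 64.9 and 60.6 TPM (log2 fold change 1.44 ± 0.26 SE, adjusted p = 0.00221). HRAS-like suppressor 3 (g2658), a phospholipase, had 177, 164 and 120.4 TPM and 507, 603 and 522 TPM (log2 fold change 1.83 ± 0.19 SE, adjusted p = 6.52e-06). The calls of g5548, g5408, g5332 and g2658 held under every alternative. That of g13163 was lost without 12 h replicate 2, where the log2 fold change was 0.998 and just under the threshold, and that of g2246 with only the compared groups in the fit (adjusted p = 0.107).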
